A study of Homo sapiens with 8 samples.

Results

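Chromosome 2 carries duplicated sequence on both sides of its centromere, and farther along its long arm lies the scar of the head-to-head fusion of a pair of ancestral ape chromosomes. The stretch from 86 to 134 Mb of chromosome 2 (hg19) holds both flanks of the centromere, the fusion near 114 Mb and band 2q21. It was examined for γH2AX, the phosphorylated form of histone H2AX, in A2780, a human ovarian carcinoma cell line. Every called region whose midpoint lies from 86 to below 134 Mb was taken, whatever its strength. These were 1049 of the 17789 Pt-ttpy regions, 1128 of the 25671 cisplatin regions and 714 of the 9709 untreated regions on chromosomes 1 to 22 and X, or 2891 of 53169 in all.

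Chromatin of cells given Pt-ttpy, of cells given cisplatin and of untreated cells was immunoprecipitated for γH2AX and sequenced, with 2 samples in each group, and 2 input samples of untreated cells complete the series of 8. Each drug was given for 96 hours at its own IC80. The labels tie both samples of a group to 1 deposited peak list, so each condition has 1 list and no replicates, no p-value between conditions was possible, and every difference below compares lists, not drugs in general. Nothing in the labels says that the samples of a group came from separate cultures. Read totals are not in the lists, so the depth is unknown, and input values were not analysed here.

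As background, γH2AX is laid down by damage kinases around a DNA break and can spread far along the chromatin. Called regions mark only the places where the peak caller scored enrichment. Cisplatin crosslinks neighbouring purine bases. Pt-ttpy is a platinum complex with a terpyridine ligand that binds G-quadruplexes, stacked structures of guanine-rich DNA such as telomere repeats. Centromeres are built of alpha satellite repeats, most of them missing from hg19, and their flanks hold segmental duplications, near-identical copies of sequence from elsewhere. On the short-arm side of chromosome 2 lie duplicated immunoglobulin kappa gene segments. The fusion left telomere-type repeats and subtelomeric genes inside the arm. In RefSeq (GRCh38.p14), FAM138B, WASH2P, DDX11L2, RPL23AP7 and RABL2A stand near each other there, and WASH2P and DDX11L2 belong to families with copies at chromosome ends. Band 2q21 holds the relic of the other ancestral centromere. A gene annotation of hg19 was not used here, so regions are given by position and not assigned to genes.

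The deposited fold of a region is the peak caller's enrichment over a background of its own list, for which the control is not stated. Among regions on chromosomes 1 to 22 and X it took 183 distinct values in the Pt-ttpy, 184 in the cisplatin and 179 in the untreated list, and the number of fold values that went with more than 1 q-value was 0 in each list. Each fold value thus went with a single q-value whatever the position, so the values show no background that varied along the genome. What part the number of copies of a sequence has in its fold was not tested. The lowest fold on the stretch was 2.75 in the Pt-ttpy, 2.60 in the cisplatin and 3.01 in the untreated list. Folds are the authors' own values and are used here only within a list.

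The stretch held 5.90% of the Pt-ttpy list (95% Clopper-Pearson interval 5.56 to 6.25), 4.39% of the cisplatin list (4.15 to 4.65) and 7.35% of the untreated list (6.84 to 7.89). These intervals cover counting error only, and clustered regions are not independent of each other. Called sequence on the stretch came to 413 kb after Pt-ttpy, 440 kb after cisplatin and 217 kb without drug. Regions were wider in the drug lists, with a median width of 230 bp for Pt-ttpy and 226 bp for cisplatin, against 170 bp for untreated cells. At least 1 kb wide were 68 Pt-ttpy, 73 cisplatin and 33 untreated regions. Part of the untreated list is cut into pieces: on the stretch, 51 untreated peak numbers stood on more than 1 region.

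In the lists as deposited, the drug lists exceeded the untreated list by less on the stretch than elsewhere. There were 1.47 Pt-ttpy and 1.58 cisplatin regions per untreated region on the stretch, against 1.86 and 2.73 over the rest of chromosomes 1 to 22 and X. On the remainder of chromosome 2 the ratios were 4.98 and 9.78, from 229 Pt-ttpy, 450 cisplatin and 46 untreated regions. Sequence within 5 Mb of the centromere gaps of other chromosomes gave 1.46 and 1.66, close to the values on the stretch. Pt-ttpy over cisplatin was 0.93 on the stretch, 0.879 near the centromere gaps of other chromosomes and 0.682 over all sequence outside the stretch. Near single centromere gaps it ran from 0.856 on chromosome 16 and 0.875 on chromosome 7 to 0.916 on chromosome 10 and 1.00 on chromosome 4, and within 5 Mb of the gap of chromosome 2 it was 0.963.

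Numbers missing from the untreated list bear on these ratios. Peak names in that list are numbered along the genome, and on the stretch 262 of 920 numbers were missing (28.5%), a smaller share than in the whole list (8848 of 18049, 49.0%). With the missing numbers counted as untreated regions, the ratios on the stretch were 1.07 for Pt-ttpy and 1.16 for cisplatin. Over the whole lists, chromosomes Y and M included, they were then 0.962 and 1.38, so that the Pt-ttpy ratio on the stretch was above that of the whole list and the cisplatin ratio still below it. The stretch's share of the untreated list was then 5.28%, below the Pt-ttpy share. With the 9709 top regions of each list, the stretch held 733 Pt-ttpy, 692 cisplatin and 714 untreated regions, so that the untreated count lay below the Pt-ttpy and above the cisplatin count. Among regions with a -log10 q of at least 5, the stretch's shares were 7.62% for Pt-ttpy, 6.94% for cisplatin and 7.72% for untreated cells.

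**Figure D1:**
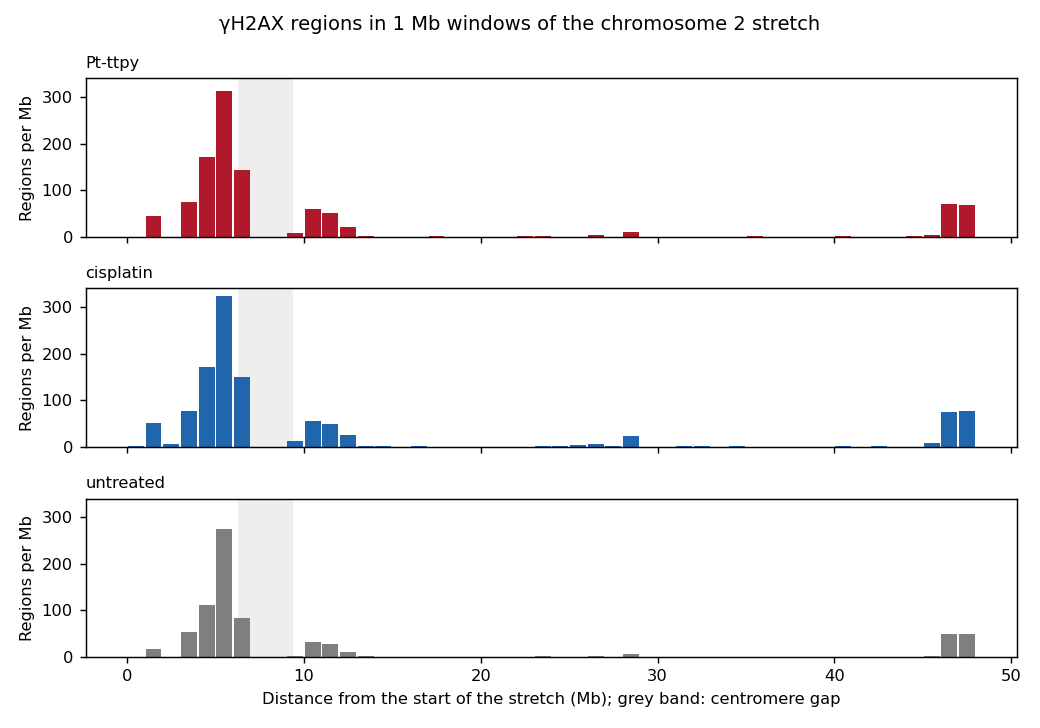
Number of γH2AX regions in each 1 Mb window, by distance from the start of the stretch, for the Pt-ttpy, cisplatin and untreated lists. The tallest bar of each panel (314 Pt-ttpy, 324 cisplatin and 274 untreated regions) lies just before the centromere gap, and most windows of the long arm hold few or no regions.

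The regions stood in the same few places in all 3 lists. Of 48 windows of 1 Mb, 21 held a Pt-ttpy, 28 a cisplatin and 16 an untreated region, and each of the 16 windows with an untreated region also held regions of both drugs. At least 10 regions were found in 11 windows for Pt-ttpy, 12 for cisplatin and 10 for untreated cells. The windows starting at 91, 90, 92 and 89 Mb held the most regions in every list, in that order. The window from 91 to 92 Mb held 314 Pt-ttpy, 324 cisplatin and 274 untreated regions, and the one from 90 to 91 Mb held 171, 171 and 111. From 92 Mb to the gap there were 143 Pt-ttpy, 150 cisplatin and 83 untreated regions. From 89 to 90 Mb the counts were 74, 77 and 53, and from 132 to 133 Mb they were 71, 75 and 48 in the same order of lists. In absolute numbers the excess over untreated cells was largest from 92 to 93 Mb for cisplatin, at 67 regions, and from 90 to 91 Mb and 92 to 93 Mb for Pt-ttpy, at 60 regions each.

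A window was compared where at least 5 regions of either list lay in it, and was called where 1 list had at least 2 times as many regions as the other. Pt-ttpy was at least 2 times untreated in 4 of 12 windows of the stretch, or 33.3%, where 63.8% of windows over chromosomes 1 to 22 and X met this. Cisplatin was at least 2 times untreated in 7 of 15 windows, or 46.7%, against 73.6% over all windows. Both shares lay below those of the genome. With regions of a -log10 q of at least 5, Pt-ttpy was at least 2 times untreated in 5 of 12 windows, against 40.6% over the genome, so its share was then not below. By number of regions, no window of the stretch had more untreated than drug regions: the untreated list was the lower one in 12 of 12 windows compared with Pt-ttpy and in 15 of 15 compared with cisplatin, and 0.329% and 0.551% of genome windows held at least 2 times as many untreated regions. By share of its own list, untreated was at least 2 times cisplatin in 1 of 15 windows, against 10.7% over the genome, and at least 2 times Pt-ttpy in 0 of 12, against 4.61%. Between the drugs, cisplatin was at least 2 times Pt-ttpy in 3 of 15 windows, against 41.0% of windows over the genome, and 0 windows showed the opposite. Those windows start at 88 Mb, with 0 Pt-ttpy and 6 cisplatin regions, at 114 Mb, with 10 and 23, and at 131 Mb, with 3 and 8. Pt-ttpy regions outnumbered cisplatin regions from 96 to 97 Mb, at 60 against 56, and from 97 to 98 Mb, at 50 against 49.

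Most regions gathered in a few blocks. Joining regions of any list at most 100 kb apart formed 11 blocks with at least 10 regions in some list. This grouping was chosen after the positions had been seen. Since regions of all lists were joined, the blocks are common to the 3 lists by construction. Together the blocks span 2208 kb and hold 1032 Pt-ttpy regions (98.4% of those on the stretch), 1073 cisplatin regions (95.1%) and 708 untreated regions (99.2%). Outside them lay 17 Pt-ttpy, 55 cisplatin and 6 untreated regions. Of the blocks, 5 lie on the short-arm side, 4 on the long-arm side within 5 Mb of the gap, 1 near the fusion and 1 in 2q21.

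**Figure D2:**
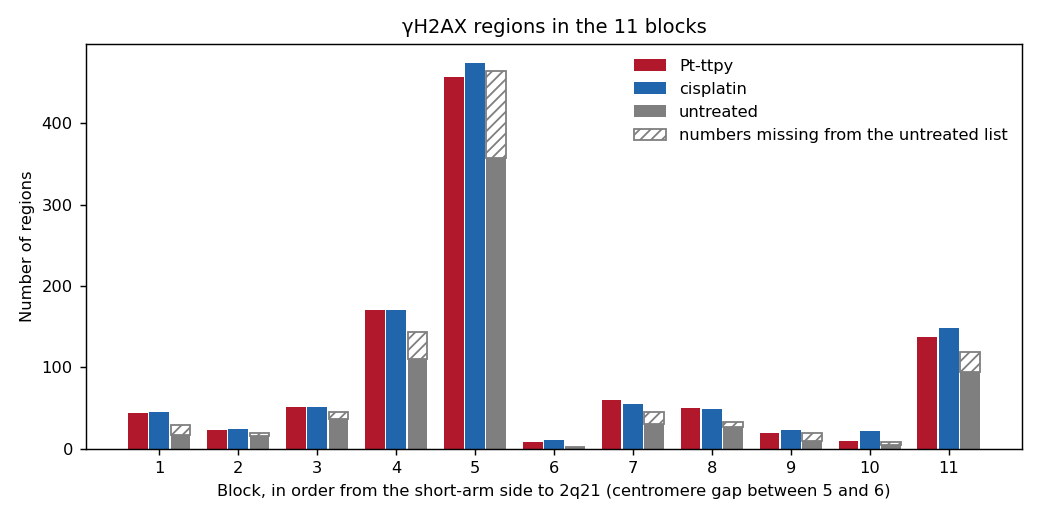
Number of regions of each list in the 11 blocks, numbered from the short-arm side to 2q21, with the peak numbers missing from the untreated list hatched above its own regions. The block before the centromere gap, number 5, is the tallest with 457 Pt-ttpy, 474 cisplatin and 357 untreated regions, and Pt-ttpy over cisplatin is lowest in number 10, at 0.455, and 0.727 to 1.09 in the other blocks.

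The short-arm flank was the densest section. From 86 Mb to the gap there were 747 Pt-ttpy, 780 cisplatin and 538 untreated regions, or 71.2%, 69.1% and 75.4% of the regions on the stretch, and 172 untreated numbers were missing. The block next to the gap ran from 91595183 to 92326162 in the Pt-ttpy, from 91595172 to 92326168 in the cisplatin and from 91595232 to 92326163 in the untreated list. Its edges lay close to each other in the 3 lists. It held 457 Pt-ttpy, 474 cisplatin and 357 untreated regions, which covered 30.1%, 31.2% and 16.2% of its span of 731 kb.

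Counts and covered length did not go together inside this block. In the 50 kb from 150 to 200 kb past its start there were 27 Pt-ttpy, 18 cisplatin and 37 untreated regions, but the called length was 29.6 kb for Pt-ttpy, 30.0 kb for cisplatin and 20.8 kb for untreated cells. The next 50 kb held 28, 36 and 45 regions over 32.3, 32.5 and 16.6 kb in the same order. More untreated regions therefore stood on less sequence there, where the drug lists had long unbroken regions. An example is the cisplatin region from 91763918 to 91771917, 8000 bp wide with a fold of 8.14. The block thinned out in every list from 500 to 550 kb past its start, with 5 Pt-ttpy, 6 cisplatin and 1 untreated region.

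**Figure D3:**
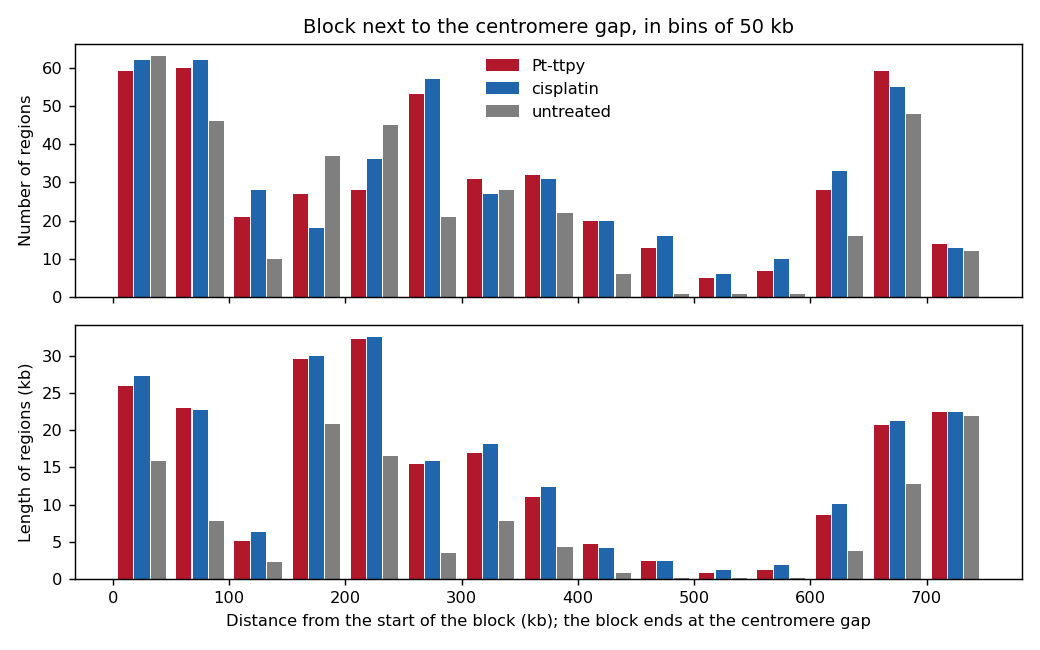
Number of regions (upper panel) and their summed length in kb (lower panel) for each list, in bins of 50 kb from the start of the block that ends at the centromere gap; the last bin is cut short by the end of the block. In the bins from 150 to 250 kb the untreated list has the most regions and the least called length.

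At the end of the block, against the gap, the widest region of each list on the stretch was found. It spanned 92315732 to 92326162 (10431 bp) after Pt-ttpy, 92315737 to 92326168 (10432 bp) after cisplatin and 92315739 to 92326163 (10425 bp) in untreated cells. It had the highest -log10 q of the Pt-ttpy list and of the cisplatin list, a value to which 36 Pt-ttpy and 27 cisplatin regions were tied. Of those tied, 8 Pt-ttpy and 3 cisplatin regions lay on the stretch. In the untreated list 18 regions were tied at the highest -log10 q, 295, of which 1 lay on the stretch. It was the region from 92295804 to 92298180 with a fold of 60.4, which was matched from 92295805 to 92298179 by Pt-ttpy with a fold of 26.3 and from 92295803 to 92298182 by cisplatin with a fold of 35.1. Of the 100 regions with the highest -log10 q in each list, 14 Pt-ttpy, 15 cisplatin and 16 untreated regions were on the stretch.

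The other short-arm blocks were smaller. The block from 90281979 to 90530220 held 171 Pt-ttpy and 171 cisplatin regions against 111 untreated ones. The block from 89830509 to 89888169 held 51 Pt-ttpy, 51 cisplatin and 37 untreated regions, which covered 36.2%, 37.7% and 26.5% of its span, more than in any other block for each of the lists. The median fold of its untreated regions was 12.3, where the untreated median on the stretch was 5.71. The smallest short-arm block, from 89072655 to 89105654, held 23 Pt-ttpy, 24 cisplatin and 16 untreated regions. Nearest to the start of the stretch, the block from 87570996 to 87656367 held 44 Pt-ttpy, 45 cisplatin and 17 untreated regions, with 12 untreated numbers missing. Its ratios to untreated cells, 2.59 for Pt-ttpy and 2.65 for cisplatin, were the highest of the 5 short-arm blocks.

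No region lay in the centromere gap. The stretch free of regions across it was 3147 kb long for Pt-ttpy, 3030 kb for cisplatin and 3147 kb for untreated cells. On the long-arm side the regions did not pile up against the gap as they did on the short-arm side. The first was a cisplatin region from 95356553 to 95356761 with a fold of 3.46, found in no other list. The first Pt-ttpy region ran from 95472746 to 95473484 and the first untreated one from 95472756 to 95472997.

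The long-arm flank, the 5 Mb past the gap, held 140 Pt-ttpy, 146 cisplatin and 71 untreated regions. Its ratios to untreated cells were 1.97 for Pt-ttpy and 2.06 for cisplatin, against 1.39 and 1.45 on the short-arm flank. With missing numbers added, the untreated count on the long-arm flank was 112. The highest fold there was 7.92 for Pt-ttpy, 7.62 for cisplatin and 8.42 for untreated cells, far under the maxima of the short-arm flank, which were 26.3, 35.1 and 60.4. Those short-arm maxima are not particular to the flank, as the rest of chromosomes 1 to 22 and X reached the same values. Wide regions were also few, with 2 Pt-ttpy, 4 cisplatin and 1 untreated region of at least 1 kb, against 53, 56 and 24 on the short-arm flank.

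Most regions of the long-arm flank stood in 4 blocks. The block from 95472729 to 95559626 had 8 Pt-ttpy, 11 cisplatin and 2 untreated regions, and the untreated ones spanned only 0.753 kb of its 86.9 kb. Between the untreated regions at 95473508 and 96515776 lay 7 Pt-ttpy and 10 cisplatin regions, and 6 untreated numbers were missing in this interval. The block from 96515731 to 96632007 held 60 Pt-ttpy, 55 cisplatin and 31 untreated regions and was the only block of the 11 in which Pt-ttpy was ahead by more than 1 region. The block from 97717027 to 97916819 held 50, 49 and 27 regions, and that from 98122637 to 98182040 held 20, 23 and 10.

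Beyond the flank the arm was nearly empty. From 5 Mb past the gap to 112 Mb and from 116 to 130 Mb, 25.7 Mb in all, there were 5 Pt-ttpy, 14 cisplatin and 1 untreated region, or 0.195, 0.545 and 0.039 regions per Mb. The distal part from 116 to 130 Mb held 2 Pt-ttpy and 6 cisplatin regions and no untreated region. In the untreated list, 16 numbers were missing between 114340246 and 131347522, an interval with 5 Pt-ttpy and 17 cisplatin regions. None of the 8 distal regions was common to the drugs, where over the whole lists 69.9% of Pt-ttpy and 47.8% of cisplatin regions were. The highest fold of the distal regions was 4.04 for Pt-ttpy and 4.33 for cisplatin. Without drug, the longest region-free run of the stretch was 17007 kb. It was 6786 kb after Pt-ttpy, from 114363323 to 121149128, and 7010 kb after cisplatin, from 102264520 to 109274175.

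Near the fusion, from 112 to 116 Mb, 13 Pt-ttpy, 29 cisplatin and 6 untreated regions were called, with 3 untreated numbers missing. Only 9 Pt-ttpy, 13 cisplatin and 4 untreated regions of the section had a -log10 q of at least 5. Most of the called regions lay in 1 block. It held 10 Pt-ttpy regions from 114173364 to 114363323, 22 cisplatin regions from 114173399 to 114375773 and 5 untreated regions from 114173498 to 114340246. The median fold over the section was 3.91 for Pt-ttpy, 3.64 for cisplatin and 5.11 for untreated cells, below the medians of 4.43, 4.50 and 5.71 on the stretch. Over chromosomes 1 to 22 and X the medians were 3.91, 3.64 and 5.71, so the drug regions of the section had the median fold of their whole lists. No region of the section reached 1 kb.

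The fusion block had a dense group near each end and a few cisplatin regions in between. Split where more than 10 kb held no region, its first group ran from 114173364 to 114178615 with 7 Pt-ttpy, 6 cisplatin and 4 untreated regions. The groups between 114193547 and 114262370 held cisplatin regions and none of the other lists. The far group, from 114339916 to 114346874, held 2 Pt-ttpy, 8 cisplatin and 1 untreated region. The region closest to 114 Mb stood in the first group, at 114173364 to 114173603 with a fold of 4.30 for Pt-ttpy, at 114173399 to 114173610 with a fold of 3.81 for cisplatin and at 114173498 to 114173606 with a fold of 4.81 for untreated cells. As 114 Mb is a rounded position, which region lies nearest to the fusion itself was not tested. In the far group the strongest Pt-ttpy region, from 114340125 to 114340774 with a fold of 5.72, and the strongest untreated one, from 114339916 to 114340246 with a fold of 10.2, overlapped each other. There, cisplatin had regions from 114340136 to 114340356 and from 114340501 to 114340641, with folds of 4.33 and 4.50. The Pt-ttpy region at 114363211 to 114363323 (fold 3.78) and the cisplatin region at 114363182 to 114363312 (fold 3.64) overlapped each other and no untreated region. All 6 untreated regions of the section overlapped regions of both drugs, where 95.1% of the whole untreated list overlapped Pt-ttpy and 96.1% cisplatin regions. Of the 29 cisplatin regions 11 (37.9%) lay on Pt-ttpy regions, and of the 13 Pt-ttpy regions 11 (84.6%) lay on cisplatin regions. Over the whole lists these shares were 47.8% and 69.9%.

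**Figure D4:**
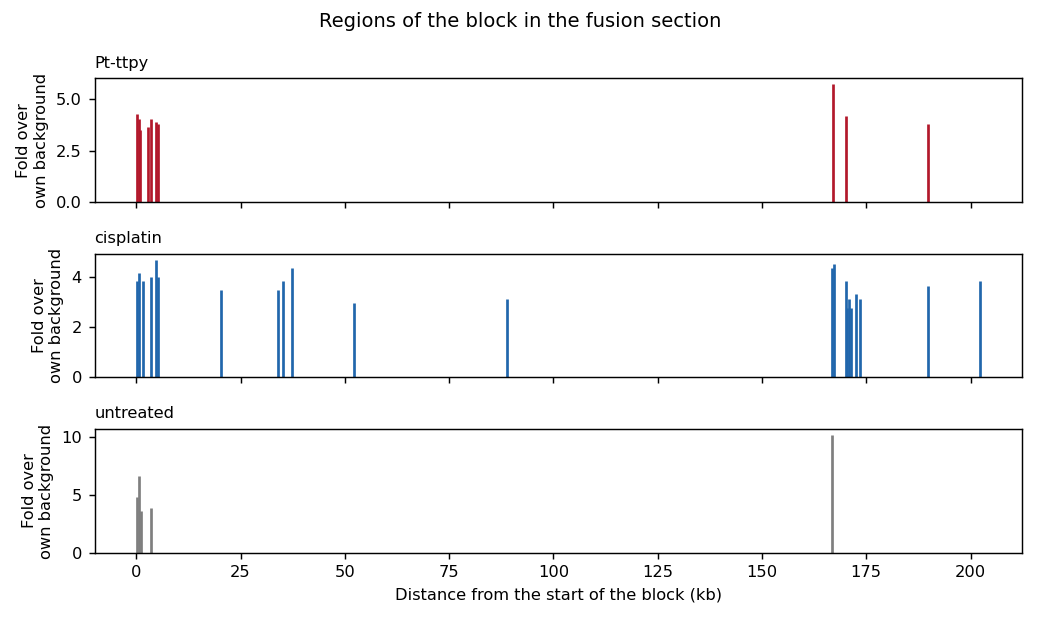
Regions of the block near the fusion, by distance in kb from its start, for each list; the height is the fold over that list's own background, on an axis of its own for each panel, so heights are not comparable between panels. The panels show 10 Pt-ttpy, 22 cisplatin and 5 untreated regions, with cisplatin regions alone in the middle of the block.

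Band 2q21, taken as the last 4 Mb, held 144 Pt-ttpy, 159 cisplatin and 98 untreated regions, with 27 untreated numbers missing. All but 6 Pt-ttpy, 11 cisplatin and 3 untreated regions stood in the block from 132763916 to 133151785, which held 138, 148 and 95. The region at 133028722 to 133031960 after Pt-ttpy (fold 26.0), at 133028722 to 133032223 after cisplatin (fold 34.6) and at 133028724 to 133032218 in untreated cells (fold 59.5) had the highest -log10 q of the section in each list, other regions tied with it included. In the Pt-ttpy list it was among the 8 regions of the stretch tied at the highest -log10 q, as was the region from 133018705 to 133021406 with a fold of 26.3. The median fold in the section was 5.07 for Pt-ttpy, 4.67 for cisplatin and 7.07 for untreated cells, above the median of the stretch in each list.

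Nearly all untreated regions of the stretch were called again after either drug. A region counted as shared where at least 1 bp overlapped a region of the other list. Of the 714 untreated regions, 696 (97.5%) shared sequence with a Pt-ttpy region and 703 (98.5%) with a cisplatin region, close to the 95.1% and 96.1% of the whole untreated list. In the other direction, 561 of 1049 Pt-ttpy regions (53.5%) and 558 of 1128 cisplatin regions (49.5%) lay on an untreated region, above the 39.5% and 27.3% of the whole lists. Near the centromere gaps of other chromosomes these shares were 49.8% and 43.6%. Between the drugs, 84.2% of Pt-ttpy regions of the stretch lay on a cisplatin region (883 of 1049), against 69.9% of the whole list and 82.0% near other centromere gaps. For cisplatin, 858 of 1128 regions (76.1%) shared sequence with Pt-ttpy, against 47.8% of the whole list and 71.5% near other gaps.

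To count places rather than regions, overlapping regions of the 3 lists were joined into 1221 loci. All 3 lists had called 503 of them (41.2%), a share of 20.0% among the 28783 loci outside the stretch and of 35.8% near other centromere gaps. Both drugs but not untreated cells had called 278 (22.8%), against 15.8% outside. Pt-ttpy alone accounted for 163 loci (13.3%), against 17.6% outside and 13.8% near other centromere gaps. Cisplatin alone accounted for 259 (21.2%), against 45.0% outside and 25.3% near other centromere gaps. Untreated cells alone had called 5 loci, untreated cells with Pt-ttpy 3 and untreated cells with cisplatin 10. These were 0.41%, 0.246% and 0.819% of the loci on the stretch, against 0.584%, 0.420% and 0.653% outside. How many loci of both drugs stood where one of the 262 missing untreated numbers had been was not tested.

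**Figure D5:**
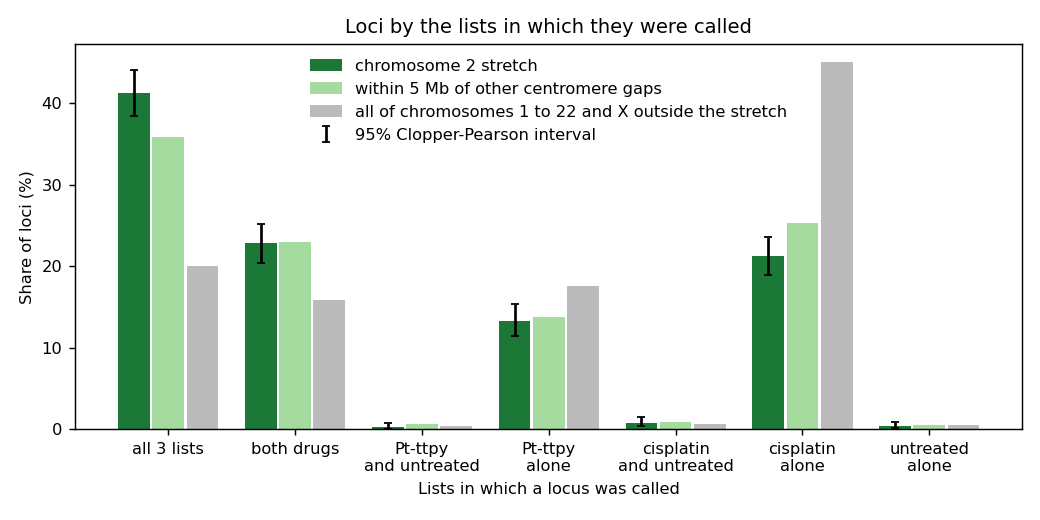
Share of loci by the lists in which they were called, on the chromosome 2 stretch (with 95% Clopper-Pearson intervals), near the centromere gaps of other chromosomes and in all sequence outside the stretch. All 3 lists called 41.2% of loci on the stretch (interval 38.4 to 44.0), against 35.8% near other centromere gaps and 20.0% outside, and cisplatin alone called 21.2% (18.9 to 23.6), against 25.3% and 45.0%.

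Loci of the sections differed in how widely they were shared. All 3 lists had called 44.2% of the 826 loci of the short-arm flank, 36.0% of the 164 of the long-arm flank and 39.7% of the 184 in 2q21. Near the fusion this was 5 of 29 loci (17.2%), and cisplatin alone had called 18 (62.1%). On the arm before the fusion section 1 of 10 loci was in all 3 lists and cisplatin alone had called 7. On the arm after it 0 of 8 loci were in all 3 lists and cisplatin alone had called 6. Outside the stretch, all 3 lists had called 20.0% of loci and cisplatin alone 45.0%.

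Drug regions off the untreated list were narrower and weaker within their own lists. Their median fold was 3.78 for Pt-ttpy, against 5.72 for Pt-ttpy regions on an untreated region, and their median width was 156 bp against 357 bp. For cisplatin the median fold was 3.81 off and 6.06 on the untreated list, with median widths of 153 bp and 380 bp. By -log10 q, the strongest locus of both drugs without an untreated region was at 97819995 to 97820147 by the Pt-ttpy list, with a fold of 6.24, and at 132800171 to 132800310 by the cisplatin list, with a fold of 6.58. The strongest regions of a single drug were, for Pt-ttpy, the one at 92250349 to 92250521 (fold 5.20), tied in -log10 q with one at 91656220 to 91656361 (fold 5.33), and, for cisplatin, the one at 91656671 to 91656789 (fold 5.89). These 3 single-drug regions lie inside the block next to the centromere gap. The Pt-ttpy region at 91656220 and the cisplatin region at 91656671 lie within 1 kb of each other. A single-drug region is thus one that overlaps no region of another list, and a neighbour may lie close by.

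Outside the blocks lay 64 loci, some of them close to each other. All 3 lists had called 5, both drugs 3, Pt-ttpy alone 9, cisplatin alone 46, and cisplatin with untreated cells 1. Among all loci outside the stretch, the shares of these classes were 20.0%, 15.8%, 17.6%, 45.0% and 0.653%. The 5 loci outside the blocks that all 3 lists had called were narrow and lay at nearly the same bases in each list. The locus at 109815845 to 109816059 had a fold of 9.98 in the Pt-ttpy, 9.17 in the cisplatin and 8.42 in the untreated list, above the median fold of its list on the stretch in each case. The locus at 131347517 to 131347664 had folds of 7.79, 9.87 and 12.9 in the same lists, and that at 132452547 to 132452691 had 7.27, 7.96 and 6.62. At 99844471 to 99844620 the folds were 5.20, 4.85 and 5.41, and at 112349007 to 112349126 they were 5.33, 5.19 and 5.41.

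Summits of shared regions lay close together in the 3 lists. Where a locus held 1 region of each of 2 lists, the summits, the bases of highest signal, were a median of 21 bp apart between Pt-ttpy and cisplatin (654 pairs), 23 bp between Pt-ttpy and untreated cells (308 pairs) and 22.5 bp between cisplatin and untreated cells (318 pairs). The same distances outside the stretch were 23, 19 and 21 bp. At most 50 bp apart were 71.9%, 70.1% and 70.1% of the pairs on the stretch. Pairs whose untreated summit lay outside its own region, 55 with Pt-ttpy and 56 with cisplatin, were left out.

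Few regions lay near the limits of the stretch. Just inside the start the first regions were at 87128864 for Pt-ttpy, 86877462 for cisplatin and 87571992 for untreated cells, and the last ones before it ended at 83067526, 84886274 and 78829814. At the far limit the last regions inside ended at 133121476 for Pt-ttpy, 133151785 for cisplatin and 133120672 for untreated cells. The first ones beyond it began at 134058125, 135578164 and 135875020.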

How the data were processed

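γH2AX chromatin immunoprecipitation of A2780 cells was sequenced in 2 samples per condition. Build hg19 and the tools MACS2 2.1.0 and BWA 0.7.5 come from the submitters' processing notes. Calling settings, control and any pooling of samples: not given in the sources used here. Both drug lists carry a tag for untreated cells in their names, and what it stands for is not stated. Each list as deposited by the authors gives a score, the fold at the summit, which is a ratio, the -log10 of the q-value, and the offset of the summit, another deposited value. They served only for description, ranking and filtering inside 1 list.

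Regions on chromosomes Y and M were left out. Computed here were counts per 1 Mb window (at least 5 regions in either list, 2-fold), overlaps (at least 1 bp), joined loci, summit distances, exact Clopper-Pearson 95% intervals, which cover counting error only, and blocks (gaps of at most 100 kb, at least 10 regions in a list). The sections were the 5 Mb past the gap, 2 Mb either side of 114 Mb, the rounded fusion position, and the last 4 Mb. The centromere was meant to be read as the widest stretch free of regions in all lists. Since a wider one, 4960 kb from 121149309 to 126109531, lay on the arm, centromere gaps were taken from general knowledge of hg19 for every chromosome; 0 regions of each list lay in one. Regions are named as the strongest (ties in -log10 q taken by width) and widest of a list, the strongest of each section, the nearest to 114 Mb, the strongest of shared and single-drug classes, and those outside blocks. The split of the fusion block at 10 kb was chosen after the data were seen. The members and lists were chosen with earlier results of these data known. Read depth is unknown. No sequence was read, since no genome of build hg19 was used here. Code was tested on simulated data and run with pandas 2.3.3, scipy 1.17.1 and numpy 2.4.6 under Python 3.11.15, with figures by matplotlib 3.10.9. Alternatives were a -log10 q of at least 5, merging within 1 kb, equal numbers of top regions, counted missing numbers, stricter overlap and other window rules.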

Additional observations from a re-analysis of the deposited data

How the results depend on the processing

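Of 55 alternative values, 22 stayed close to those reported, 31 moved and 2 turned round. With equal numbers of top regions, Pt-ttpy over untreated was 1.03, cisplatin over untreated 0.969 and Pt-ttpy over cisplatin 1.06, the last 2 on the other side of 1. Merging regions within 1 kb gave 1.16, 1.39 and 0.833 in the same order. Counting missing untreated numbers gave 1.07 for Pt-ttpy and 1.16 for cisplatin over untreated. Without the densest window, a choice made after seeing the data, these were 1.67 and 1.83. The stretch's share of the Pt-ttpy list was 7.62% at a -log10 q of at least 5, 3.26% merged and 7.55% with equal numbers. For cisplatin it was 6.94%, 2.23% and 7.13%, and for untreated cells 7.72%, 6.36% and 7.35%, and 5.28% with missing numbers counted. The order of Pt-ttpy and untreated shares thus turned with equal numbers and with missing numbers counted. When at least 50% of a region had to overlap, 74.1% of Pt-ttpy regions lay on cisplatin and 30.0% on untreated regions. Under the same rule 66.8% of cisplatin regions lay on Pt-ttpy and 27.9% on untreated regions, and 95.2% of untreated regions on Pt-ttpy regions. At a -log10 q of at least 5, Pt-ttpy regions were on cisplatin regions in 87.5% of cases, and of cisplatin regions 79.6% lay on Pt-ttpy and 52.6% on untreated regions. Whole-list shares are given here only for the 1 bp rule over all regions. They are therefore no background for the shares under these stricter rules. By share of list, Pt-ttpy was at least 2 times untreated in 1 of 12 windows, against 51.6% over the genome. Cisplatin was at least 2 times untreated in 2 of 15, against 54.0%, and at least 2 times Pt-ttpy in 1 of 15, against 20.1%. With a minimum of 1 region the counts were 11, 20 and 14 in the same order. Under that rule 1 region against 0 already passes as 2-fold. No genome share is given for it, so these counts cannot be judged against the genome. At a -log10 q of at least 5, cisplatin was at least 2 times Pt-ttpy in 0 of 12 windows, against 26.0% over the genome. The cause of these moves was not tested. No paired analysis was possible because each condition has 1 list for both of its samples, and for the same reason no replicate could be left out. Depth is unknown, so a region missing from a list may be undetected there.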

Other observations

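The 5 loci called in untreated cells alone were narrow. They lay at 91659509 to 91659627 (fold 6.92), 91696434 to 91696521 (fold 6.01), 91868143 to 91868196 (fold 4.81), 92119515 to 92119584 (fold 3.91) and 98125698 to 98125797 (fold 4.51). Of these, 4 stood in the block next to the centromere gap and 1 in the long-arm flank.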
